A study of Mus musculus with 4 samples.

Results

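Imprinted genes are transcribed mainly from the copy inherited from 1 parent, and 51 of them, taken from textbook knowledge of the mouse, were followed through RNA-seq of wild-type (WT) and *Bmal1* knockout (KO) mouse embryonic stem cells (ESCs). They were found by gene symbol, with merged symbols split, and were grouped by imprinted cluster and by the parental allele known to be active. Of the 51 genes, 48 had a row, in 50 of the 19645 features (17710 of them with a symbol), while *Ins2*, *Rasgrf1* and *Kcnk9* had none. BMAL1 is the transcription factor that pairs with CLOCK to drive the circadian transcription loop. The 2 KO libraries came from an ESC line made by CRISPR-Cas9 with a short frameshifting deletion at the start codon of *Bmal1*, and the 2 WT libraries from unedited ESCs, both kept in serum with LIF on gelatin. No sex, strain or passage number was given with the samples. The study describes the libraries of a group as biological replicates, and the labels name no separate cultures, so p-values measure the spread between these libraries. The KO is 1 edited line, so that effects of the genotype and of the line cannot be told apart.

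An imprinted cluster is governed by an imprinting control region, a stretch of DNA that is methylated on the maternal or the paternal copy from the germ line onward and keeps that mark in the embryo. Many clusters hold a long non-coding RNA made from the unmethylated copy, which silences neighbouring protein-coding genes on the same chromosome. The methylated copy is protected in the early embryo and in ESCs by ZFP57 and ZFP445, zinc finger proteins that recruit TRIM28, and by the maintenance methyltransferase DNMT1 with its partner UHRF1. As a textbook tendency, paternally expressed genes such as *Igf2* favour fetal growth and maternally expressed genes such as *Cdkn1c* and *Igf2r* restrain it. FPKM (fragments per kilobase, relative to all mapped fragments of a library) do not separate the alleles: "maternal" and "paternal" below name the copy known to be active where the gene is imprinted, and several members are imprinted only in certain tissues.

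More of the imprinted genes rose than fell in *Bmal1* KO ESCs. Of their features, 39 reached a mean of 0.5 FPKM over the 4 libraries and were tested, of which 15 rose and 4 fell at an adjusted p under 0.05, and 20 did not pass the test. Among all 12990 features tested, 6.85% rose and 5.60% fell. The members were chosen with earlier results of these data known, so these shares describe the list and do not test it. At more than 2-fold, 8 members rose, against 2.72% of all features, and none fell, against 1.42%, the lowest log2 fold change of a member being -0.86. Of these 8, *Igf2*, *Ascl2* and *Plagl1* had WT means under 0.5 FPKM and entered the test through the KO libraries. The median log2 fold change was 0.41 over the members and -0.02 over all features. The KO libraries were both above the WT libraries for 27 of the 39, against 27.0% of all features, and both below for 5, against 31.7%. The groups overlapped for the remaining 7. The test was limma on log2(FPKM + 0.1), with Benjamini-Hochberg adjustment over all 12990 features, and every log2 fold change below is KO minus WT on that scale, with its standard error (SE).

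**Figure D1:**
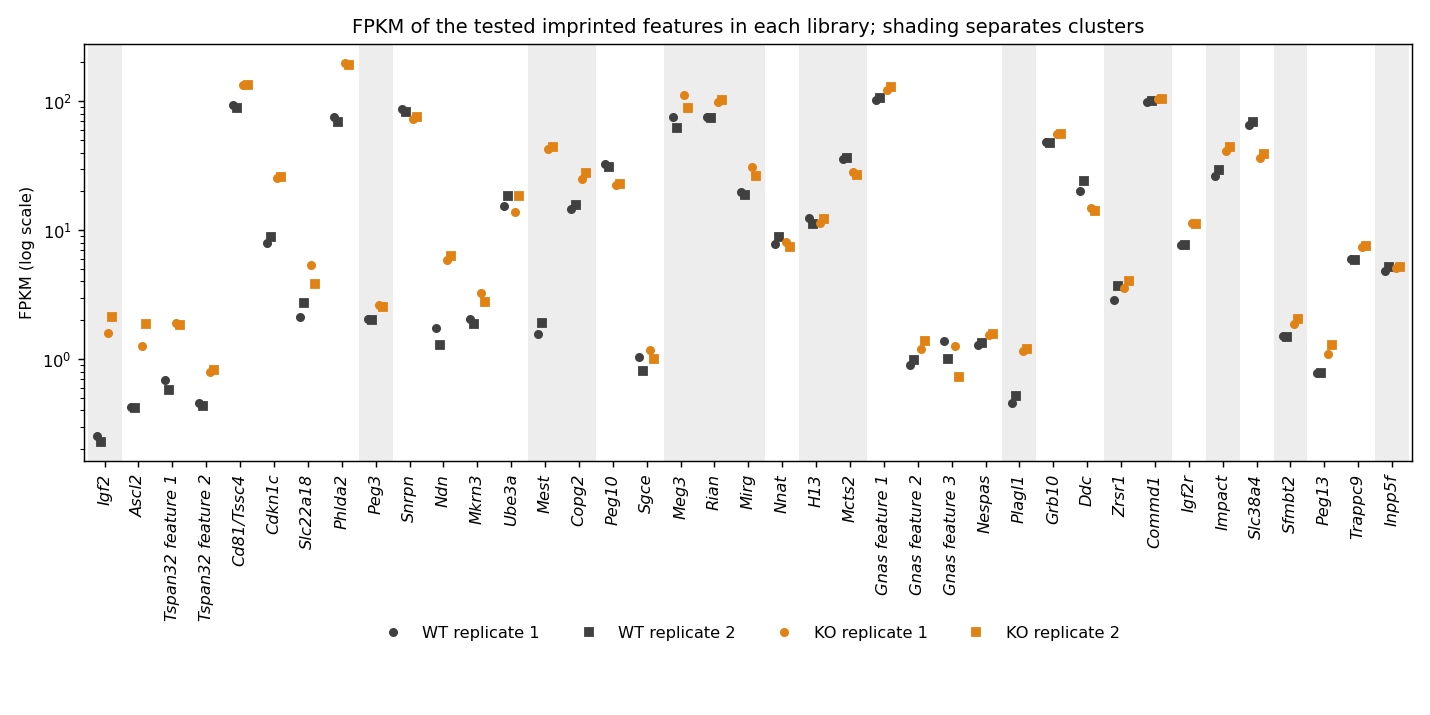
FPKM on a log axis of each of the 39 tested imprinted features, with 1 point for each of the 2 WT (grey) and 2 KO (orange) libraries and shading that alternates between clusters. *Mest* lies at 1.55 and 1.92 in WT and at 43.0 and 44.4 in KO, and *Igf2*, *Ascl2*, *Cdkn1c*, *Phlda2* and *Ndn* also show KO points well above the WT points, while *Slc38a4*, *Peg10*, *Ddc* and *Mcts2* show them below.

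Several measures of the libraries moved with the genotype, and their part in the results below was not tested. *Bmal1* itself, listed as *Arntl*, was at 6.05 and 6.29 FPKM in WT and at 5.95 and 5.92 in KO (log2 fold change -0.06, SE 0.10, adjusted p = 0.750), and an FPKM over the whole gene does not check a short deletion. Genes of the Y chromosome differed widely: *Ddx3y* was at 0.235 and 0.403 FPKM in WT and at 16.4 and 20.6 in KO, and the 4 tested Y features had a median log2 fold change of 4.60. *Xist*, the RNA of the inactive X, was at 1.43 to 1.81 in all 4 libraries, and the 408 tested X features had a median of -0.02, as did the 11532 on autosomes. Features without a symbol held 26.8% and 37.3% of the FPKM in WT and 18.96% and 18.1% in KO. All 8 ESC markers had a row, with summed FPKM of 3479 to 3566 in WT and 3120 to 3317 in KO, and *Klf4* (-0.46, adjusted p = 0.0177) and *Tdgf1* (-0.36, adjusted p = 0.0322) fell. Primitive endoderm markers, all 7 with a row, summed to 1.17 to 1.26 in WT and 1.84 to 1.96 in KO, of which 1, *Gata4*, reached the minimum and did not pass. Fibroblast markers, which would mark feeder cells, summed to 4.81 to 4.97 in WT and 5.92 to 6.24 in KO, with 5 of 7 listed. Most of the sum was *Twist1*, at 3.04 and 3.14 in WT and at 3.34 and 3.66 in KO, and *Thy1*, at 1.69 and 1.54 in WT and at 2.73 and 2.11 in KO. Both were higher in KO without passing (adjusted p = 0.418 and 0.120 by limma). The collagen genes *Col1a1*, *Col1a2* and *Col3a1* were near 0.

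Where these genes start bears on how they are imprinted, and the windows of 250 bases before RefSeq starts are shown for *Mest*, which changed most and has distinct starts, for *Phlda2*, the most abundant KO member, and for *Plagl1* (build GRCm38, 5′ to 3′ on the gene's strand). Capitals mark TGCCGC or its reverse complement GCGGCA, the hexamer that ZFP57 binds when methylated, and the E-box CACGTG, the motif bound by BMAL1 with CLOCK.
*Mest*, upstream start (chr6:30733256-30733505, plus strand): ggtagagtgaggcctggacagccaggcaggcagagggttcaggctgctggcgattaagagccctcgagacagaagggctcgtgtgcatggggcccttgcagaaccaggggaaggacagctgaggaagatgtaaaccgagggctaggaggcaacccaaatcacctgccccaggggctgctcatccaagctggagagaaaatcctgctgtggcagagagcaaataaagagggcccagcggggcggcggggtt
*Mest*, downstream start (chr6:30737800-30738049, plus strand): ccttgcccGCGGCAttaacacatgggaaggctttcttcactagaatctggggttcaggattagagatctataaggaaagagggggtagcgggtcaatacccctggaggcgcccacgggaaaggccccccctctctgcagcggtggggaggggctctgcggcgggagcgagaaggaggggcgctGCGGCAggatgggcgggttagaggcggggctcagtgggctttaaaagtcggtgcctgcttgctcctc
*Phlda2* (chr7:143502525-143502774, minus strand): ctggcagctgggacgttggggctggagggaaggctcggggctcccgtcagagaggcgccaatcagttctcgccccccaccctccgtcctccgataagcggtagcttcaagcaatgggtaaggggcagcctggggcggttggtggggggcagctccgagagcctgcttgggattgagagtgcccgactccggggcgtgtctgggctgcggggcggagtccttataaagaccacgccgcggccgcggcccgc
*Plagl1* (chr10:13090582-13090831, plus strand): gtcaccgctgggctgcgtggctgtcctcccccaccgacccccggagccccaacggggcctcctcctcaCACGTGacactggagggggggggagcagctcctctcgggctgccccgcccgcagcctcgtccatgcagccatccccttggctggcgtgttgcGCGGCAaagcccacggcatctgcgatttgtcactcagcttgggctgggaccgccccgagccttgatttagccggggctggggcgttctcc

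The downstream *Mest* window holds the hexamer 2 times among 14 CpG dinucleotides, and the upstream window holds none among 7. The *Plagl1* window, with 19 CpG, holds 1 hexamer and 1 E-box, and that of *Phlda2*, with 21 CpG, holds neither. RefSeq promoters matched 39 member genes in 59 windows, of which 8 hold the hexamer on either strand (*Mcts2*, *Mest*, *Copg2*, *Zim1*, *Osbpl5*, *Plagl1* and *Meg3*), against 8.68% of all 32851 windows. Of these 8, 2 are nearly identical downstream *Mest* windows that hold the same hexamers. The E-box stood in 4 windows of members (*Mcts2*, *Osbpl5*, *Plagl1* and *Igf2r*), against 6.02% of all. The ends of the 2 motifs can overlap in their letters, and each was counted on its own. The median CpG count was 10 over the members and 6 over all windows. These are matches of letters and not measured binding or methylation.

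The *Kcnq1* cluster on distal chromosome 7, from *Ascl2* at 142966822 to *Osbpl5* at 143741963, held the most members that rose. Of 7 tested features, all of maternally expressed genes, 6 rose, 4 of them more than 2-fold, with a cluster median of 1.43, and the KO values exceeded the WT values for all 7. Among all features tested, 6.85% rose, 2.72% rose more than 2-fold and 27.0% had both KO libraries above both WT libraries. *Ascl2* and the second *Tspan32* feature entered the test through the KO libraries, and without them 5 of 5 rose, 3 of them more than 2-fold, with a median of 1.43. *Cdkn1c* encodes p57, an inhibitor of cyclin-dependent kinases that brakes the cell cycle. Its FPKM were 7.99 and 8.89 in WT and 25.4 and 25.8 in KO. The groups lay far apart beside the small spread within each (log2 fold change 1.59, SE 0.09, adjusted p = 0.00169). *Phlda2*, a pleckstrin-homology protein that limits placental growth, was at 75.0 and 69.2 FPKM in WT and at 198 and 190 in KO, so that the KO libraries were the highest of any member (1.43, SE 0.08, adjusted p = 0.00169).

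*Ascl2*, a basic helix-loop-helix factor needed in the trophoblast, was at 0.429 and 0.419 FPKM in WT and at 1.26 and 1.87 in KO. Both WT values lie under the minimum of 0.5, so that the feature entered the test through the KO libraries (1.65, SE 0.27, adjusted p = 0.0187). The call was lost without KO replicate 2 (adjusted p = 0.0634), the highest of a range from 0.000199 over the alternatives. *Tspan32*, a tetraspanin of blood cells, has 2 features at 1 position. The first was at 0.687 and 0.581 in WT and at 1.91 and 1.83 in KO and rose by 1.43 (SE 0.21, adjusted p = 0.0130). The second was at 0.459 and 0.434 in WT and at 0.802 and 0.822 in KO, and did not pass (0.74, SE 0.26, adjusted p = 0.126). How reads were divided between the 2 is uncertain, and their sum rose by 1.24 (adjusted p = 0.0107).

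*Cd81*, a tetraspanin of the cell surface, shares 1 feature with *Tssc4*. That feature was at 93.2 and 89.1 FPKM in WT and at 135 and 133 in KO (0.55, SE 0.07, adjusted p = 0.00951), a smaller shift than at its neighbours but outside the spread of each pair. *Slc22a18*, a transporter of organic cations, was at 2.12 and 2.71 in WT and at 5.39 and 3.81 in KO. The KO libraries differed from each other but not so far as to overlap with WT, and the call was marginal (0.89, SE 0.21, adjusted p = 0.04996, from 0.000157 to 0.106 over the alternatives, and 0.101 without KO replicate 1). *Kcnq1*, a potassium channel that gives the cluster its name, was at 0.0590 and 0.0276 in WT and at 0.0326 and 0.0837 in KO. *Kcnq1ot1*, the paternally expressed RNA that silences the cluster in cis, was at 0.0707 and 0.0991 in WT and at 0.0585 and 0.0371 in KO at the same coordinates, so that its reads and those of *Kcnq1* cannot be told apart with certainty. *Osbpl5*, an oxysterol-binding protein, was at 0.114 to 0.303 over the 4 libraries, and none of these 3 reached the minimum for the test.

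The neighbours of the cluster did not show the same shift. Of 4 tested features within 500 kb of its outer members that are in neither list of imprinted genes, none passed by limma, 0 of 4 also at an unadjusted p under 0.05, and the median was 0.03. The lowest adjusted p among these 4 was that of *Mrpl23*, a mitochondrial ribosomal protein (-0.18, SE 0.07, adjusted p = 0.182). Another of the 4, *R74862*, has the coordinates of the *Cd81* and *Tssc4* feature and so lies inside the cluster. Its KO values were above its WT values (0.43, SE 0.25, adjusted p = 0.315). Neighbours of the other clusters were taken in the same way, without genes of either list. Just beyond *Phlda2*, other genes with imprinted expression, mostly in placenta, stood near 0 without passing, as at *Nap1l4* (-0.09, adjusted p = 0.425) and *Cars* (-0.21, adjusted p = 0.110). Since *Ascl2* and *Phlda2* act in the placenta, markers of trophoblast matter here. Of 7 such markers 5 had a row, and their summed FPKM were 2.52 to 2.58 in WT and 0.774 to 1.20 in KO. Most of this sum was *Eomes*, at 2.21 and 2.25 in WT and at 0.463 and 0.775 in KO, which fell (-1.73, adjusted p = 0.0154). *Hand1*, *Krt7*, *Gata3* and *Cdx2* were at 0.221 or less in every library, under the minimum for the test, and *Cdx2* at 0.0876 or less.

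**Figure D2:**
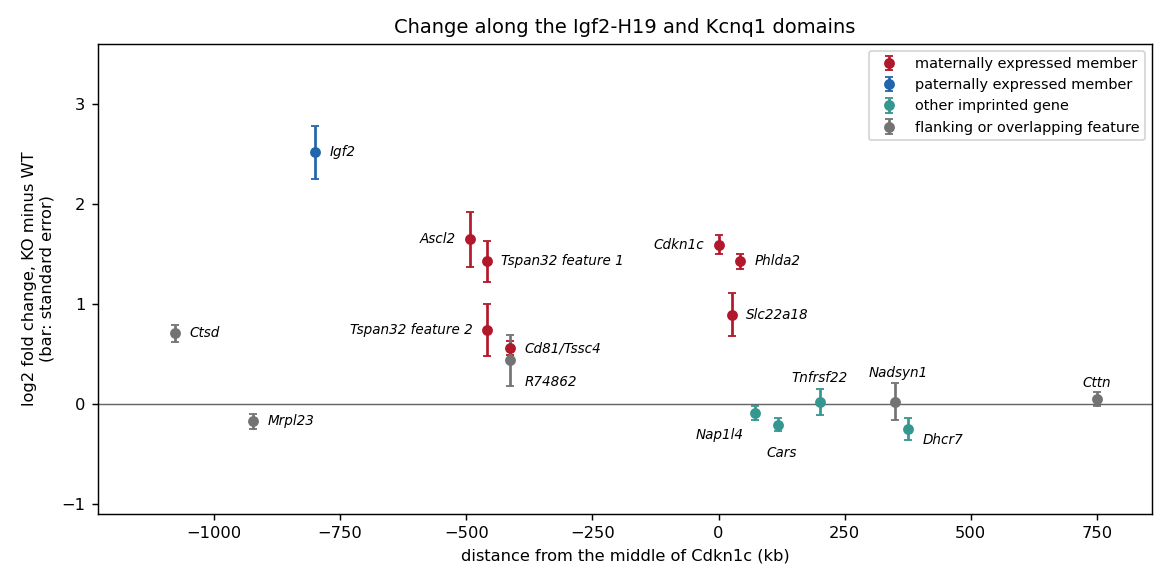
Log2 fold change (KO minus WT, bars are SE) of each tested feature of the *Igf2-H19* and *Kcnq1* clusters on chromosome 7 against its distance in kb from the middle of *Cdkn1c*, with flanking and other imprinted features. *Igf2* (2.52) and the maternally expressed members lie above 0, while *Mrpl23*, *Nap1l4*, *Cars*, *Tnfrsf22*, *Nadsyn1*, *Dhcr7* and *Cttn* lie between -0.25 and 0.05. The flanking *Ctsd* (0.70) and *R74862* (0.43), at the coordinates of *Cd81* and *Tssc4*, also lie above 0.

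*Igf2*, the fetal growth factor of the neighbouring *Igf2-H19* cluster, was at 0.255 and 0.227 FPKM in WT and at 1.61 and 2.13 in KO. Both KO libraries were well above both WT libraries, which again lay under the minimum of 0.5 (2.52, SE 0.27, adjusted p = 0.00611). At such levels the size of the change depends on the pseudocount, and it was 1.20 with a pseudocount of 1 and 2.89 with 0.01. The feature shares its coordinates with *Igf2os*, an antisense RNA, and the files are not stated to be counted by strand. *H19*, the maternally expressed non-coding RNA that shares enhancers with *Igf2*, was at 0.0396 and 0.0578 in WT and at 0.0440 and 0.0192 in KO, near 0 in all libraries. *Th*, the tyrosine hydroxylase of catecholamine synthesis, was listed at 0 in WT replicate 2 and reached at most 0.123 elsewhere. Among 3 tested neighbours *Ctsd*, a lysosomal protease, rose (0.70, SE 0.08, adjusted p = 0.00806).

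*Mest*, a paternally expressed alpha/beta-hydrolase of mesoderm and adipose tissue, changed more than any other member. It was at 1.55 and 1.92 FPKM in WT and at 43.0 and 44.4 in KO. The KO libraries agreed closely and stood 24.0-fold above WT on the scale of the test (4.58, SE 0.12, adjusted p = 0.000518). *Copg2*, a coatomer subunit on the opposite strand that is maternally expressed in some tissues, was at 14.5 and 15.6 in WT and at 25.1 and 27.8 in KO (0.81, SE 0.09, adjusted p = 0.00745). Both rows have the coordinates chr6:30733506-30896794, which begin at the upstream *Mest* start shown above. They run to the start of *Copg2* on the minus strand, so that a share of reads could have gone to either gene. The study also reported *Mest* as up-regulated in KO ESCs by RT-qPCR. None of 7 tested neighbours passed by limma, and their median was -0.23, with 0 higher and 4 lower at an unadjusted p under 0.05. The lowest adjusted p among them was that of *Cep41*, a centrosomal protein (-0.56, SE 0.13, adjusted p = 0.0503). Mesoderm markers summed to 0.413 to 0.415 FPKM in WT and 0.945 to 0.952 in KO, with all 4 listed and none above the minimum.

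The *Dlk1-Meg3* cluster on chromosome 12 carries maternally expressed non-coding RNAs, among them a long array of small RNAs, and a group of paternally expressed protein-coding genes. All 3 tested features, those of the non-coding RNAs, had higher values in KO than in WT without overlap, against 27.0% of all features. Of the 3, 2 rose at an adjusted p under 0.05, against 6.85% of all features. *Rian*, host of small nucleolar RNAs, was at 75.8 and 74.6 FPKM in WT and at 98.8 and 102 in KO (0.41, SE 0.07, adjusted p = 0.0192, from 0.00391 to 0.0656 over the alternatives, and 0.0600 without KO replicate 2). *Mirg*, host of microRNAs, was at 19.8 and 18.9 in WT and at 30.8 and 26.2 in KO (0.55, SE 0.10, adjusted p = 0.0265, from 0.00428 to 0.0694 over the alternatives, and 0.0615 without KO replicate 1). *Meg3*, the first RNA of the array, was at 75.9 and 62.1 in WT and at 112 and 89.2 in KO, and did not pass (0.54, SE 0.14, adjusted p = 0.0672). Over the alternatives its adjusted p ran from 0.000439 to 0.141, and it passed in 5 of 14, among them each fit without WT replicate 1, WT replicate 2 or KO replicate 2 (0.000439, 0.0465 and 0.00977).

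The row of *Mirg* also carries the symbols of 8 microRNA genes, and its FPKM are those of the whole row, not of any mature microRNA. To show what this host RNA encodes, mature sequences from RefSeq (GRCm38, plus strand) are given with the seed, bases 2 to 8, in capitals.
miR-382-5p (chr12:109733781-109733802): gAAGUUGUucgugguggauucg
miR-485-3p (chr12:109734946-109734967): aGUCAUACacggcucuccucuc
miR-369-3p (chr12:109743466-109743486): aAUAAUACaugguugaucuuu
miR-410-3p (chr12:109743764-109743784): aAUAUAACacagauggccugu
Each of these seeds differed from every other seed of the 14 mature microRNAs in the row. The paternally expressed genes of the cluster lay lower. *Dlk1*, a membrane ligand of the Notch family that restrains adipocyte formation, was at 0.351 and 0.428 FPKM in WT and at 0.584 and 0.523 in KO. *Rtl1*, a retrotransposon-derived gene of placenta and muscle, was at 0.385 and 0.385 in WT and at 0.615 and 0.526 in KO. The KO values were above the WT values in both cases, but neither gene reached the minimum for the test. The 2 tested features counted as neighbours did not pass. The lower adjusted p was that of *6430411K18Rik*, a row merged with *Mir127* at the coordinates of *Rian* and *Rtl1* (0.31, SE 0.20, adjusted p = 0.360). It thus lies inside the cluster and not beside it.

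In the *Snrpn* cluster, the mouse counterpart of the Prader-Willi and Angelman region, *Ndn* stood out. *Ndn*, a MAGE-family protein of neurons, was at 1.74 and 1.28 FPKM in WT and at 5.83 and 6.25 in KO, with no overlap between the groups (1.95, SE 0.18, adjusted p = 0.00473). Among its neighbours, *Mkrn3*, a ring-finger protein, was at 2.03 and 1.88 in WT and at 3.25 and 2.78 in KO without passing (0.60, SE 0.16, adjusted p = 0.0630). *Magel2* reached at most 0.279 and *Peg12* at most 0.578, both under the minimum. *Snrpn*, which encodes a splicing protein and gives the cluster its name, was at 86.5 and 82.7 in WT and at 73.4 and 75.9 in KO. The KO values were the lower ones and the difference did not pass (-0.18, SE 0.07, adjusted p = 0.163). *Ube3a*, a ubiquitin ligase that is maternally expressed in neurons alone, was at 15.3 and 18.4 in WT and at 13.8 and 18.4 in KO, so that the groups overlapped (-0.08, SE 0.16, adjusted p = 0.792). The 1 tested neighbour in neither list of imprinted genes, *C230091D08Rik* at the coordinates of *Ube3a*, did not pass (-0.02, adjusted p = 0.914). *Atp10a*, of the second list described below, also lies within 500 kb and rose. Of 4 neural markers, *Pax6* and *Sox1* rose while *Tubb3* fell by limma. *Sox1* was at 1.32 and 1.38 in WT and at 6.91 and 7.61 in KO (2.34, adjusted p = 0.00169). *Pax6* was at 0.466 and 0.859 in WT and at 2.28 and 2.36 in KO (1.72, adjusted p = 0.0198). The summed FPKM of the markers were 126 to 132 in WT and 84.0 to 91.7 in KO. Most of this sum was *Tubb3*, at 130 and 124 in WT and at 82.5 and 74.0 in KO (-0.70, adjusted p = 0.00827).

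Other members rose in clusters with 1 tested gene. *Plagl1*, a zinc finger factor that regulates other imprinted genes, was at 0.460 and 0.518 FPKM in WT and at 1.15 and 1.19 in KO. Its KO values were above the WT values, whose mean lay under the minimum (1.11, SE 0.24, adjusted p = 0.0361), and the call was lost without either KO library (adjusted p = 0.108 and 0.127, within a range from 0.0159 to 0.127). *Igf2r*, the receptor that carries IGF2 to lysosomal degradation, was at 7.61 and 7.61 in WT and at 11.4 and 11.2 in KO (0.56, SE 0.09, adjusted p = 0.0174). The *Igf2r* feature of the files ended at 12868143 on chromosome 17, beyond the end of *Igf2r* at 12769664, and spanned *Airn*, its antisense silencer from 12741311 to 12860136, which had no row. *Impact*, a regulator of translation that is paternally expressed, was at 26.4 and 29.3 in WT and at 41.0 and 44.5 in KO, again without overlap (0.62, SE 0.09, adjusted p = 0.0141).

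Around these single genes some neighbours also passed. Beside *Plagl1*, 2 of 8 tested neighbours rose and 1 fell, the lowest adjusted p being that of *Utrn*, a dystrophin relative (0.57, SE 0.09, adjusted p = 0.0151). Beside *Igf2r*, 3 of 9 rose and none fell, led by *Agpat4*, an acyltransferase of phospholipid synthesis (1.02, SE 0.09, adjusted p = 0.00455), which rose by more than *Igf2r* itself. The single tested neighbour of *Impact*, *Osbpl1a*, an oxysterol-binding protein, did not pass (0.23, SE 0.10, adjusted p = 0.199).

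The 4 members that fell were all paternally expressed genes. *Slc38a4*, an amino acid transporter of liver and placenta, was at 65.9 and 69.5 FPKM in WT and at 36.1 and 38.6 in KO, so that the KO libraries stood clearly lower (-0.86, SE 0.08, adjusted p = 0.00480). Of its 3 tested neighbours none fell, and *Pced1b* rose (0.57, SE 0.13, adjusted p = 0.0434). *Peg10*, a retrotransposon-derived gene needed in placenta, was at 32.8 and 31.0 in WT and at 22.5 and 22.6 in KO (-0.50, SE 0.08, adjusted p = 0.0164), whereas *Sgce*, the sarcoglycan gene that starts beside it, overlapped between groups (0.23, SE 0.23, adjusted p = 0.565). No feature within 500 kb of *Peg10* and *Sgce* in neither list of imprinted genes could be tested. Of the second list, described below, *Pon2* lies within 500 kb and fell, while *Casd1* and *Ppp1r9a* there did not pass. *Ddc*, the decarboxylase of dopamine and serotonin synthesis, whose imprinting is known from heart, was at 20.1 and 23.9 in WT and at 14.9 and 14.2 in KO (-0.59, SE 0.11, adjusted p = 0.0252, from 0.000637 to 0.0646 over the alternatives). The call of *Ddc* was lost without a filter and without a variance trend.

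*Mcts2*, a retrogene inside *H13*, was at 35.6 and 36.3 FPKM in WT and at 28.5 and 26.9 in KO. Both KO values were lower, but the call was lost on leaving out any 1 library, with adjusted p from 0.0582 to 0.121 (-0.38, SE 0.08, adjusted p = 0.0331 with all 4, and from 0.00796 over the alternatives). *H13*, a signal peptide peptidase at the same coordinates, overlapped between groups at 12.3 and 11.1 in WT and at 11.4 and 12.3 in KO (0.02, SE 0.10, adjusted p = 0.932). In their surroundings 1 of 18 tested neighbours rose and 2 fell, the lowest adjusted p being that of *Id1*, an inhibitor of helix-loop-helix factors (0.59, SE 0.07, adjusted p = 0.00746). *Grb10*, the growth-factor receptor adaptor beside *Ddc*, was at 48.3 and 47.8 in WT and at 55.7 and 55.9 in KO, without overlap and without passing (0.22, SE 0.07, adjusted p = 0.106). Of the 3 tested neighbours of *Grb10* and *Ddc* in neither list of imprinted genes none passed. The lowest adjusted p was at *Fignl1*, a DNA repair ATPase (-0.31, SE 0.09, adjusted p = 0.0794). *Cobl*, of the second list described below, also lies within 500 kb and fell.

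**Figure D3:**
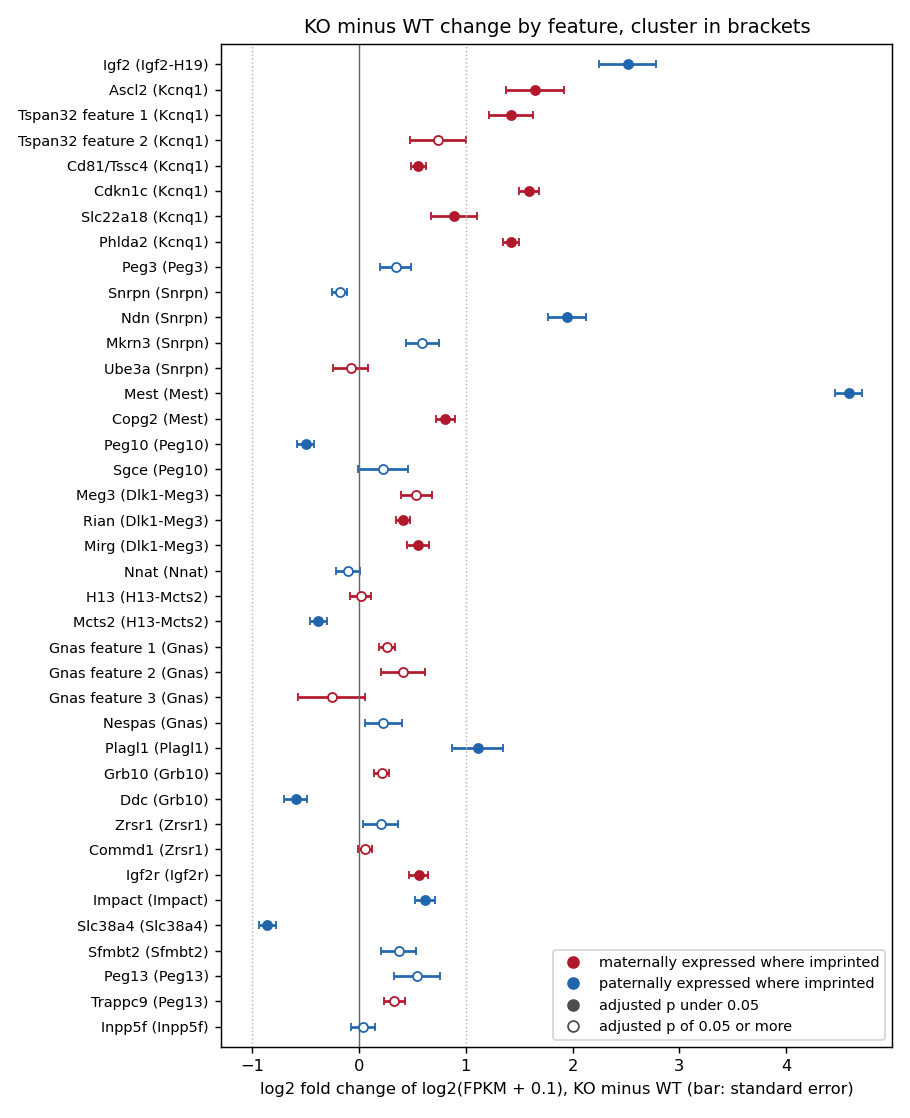
Log2 fold change (KO minus WT, bars are SE) of the 39 tested imprinted features, in rows by cluster, red for maternally and blue for paternally expressed genes, filled where the adjusted p is under 0.05. No red point on the negative side is filled, and the 4 filled points below 0 are *Slc38a4*, *Ddc*, *Peg10* and *Mcts2*.

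In the remaining clusters no member passed. *Peg3*, a zinc finger protein, was at 2.04 and 2.00 FPKM in WT and at 2.64 and 2.56 in KO (0.34, SE 0.14, adjusted p = 0.175). Its antisense partner *Peg3os*, at the same coordinates, was at 3.09 and 2.76 in WT and at 6.52 and 6.40 in KO and rose (1.12, SE 0.12, adjusted p = 0.00629), and without strand the reads of the pair cannot be told apart. *Zim1* reached at most 0.259 and *Usp29* at most 0.0522, under the minimum. The main feature of *Gnas*, which encodes the stimulatory G protein subunit, was at 103 and 106 in WT and at 122 and 128 in KO (0.26, SE 0.07, adjusted p = 0.0692). The other 2 *Gnas* features and the antisense *Nespas*, all at the same coordinates, were between 0.732 and 1.56 in every library without passing (adjusted p from 0.244 to 0.635).

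*Nnat*, a proteolipid of developing brain, overlapped between groups at 7.84 and 8.87 FPKM in WT and at 8.14 and 7.44 in KO (-0.10, SE 0.11, adjusted p = 0.603). *Zrsr1*, a splicing-factor retrogene inside *Commd1*, also overlapped, at 2.89 and 3.69 in WT and at 3.54 and 4.02 in KO (0.20, SE 0.16, adjusted p = 0.459), and *Commd1* itself stood at 99.3 to 104 (0.06, SE 0.07, adjusted p = 0.601). *Inpp5f*, an inositol phosphatase, was at 4.84 and 5.16 in WT and at 5.05 and 5.21 in KO (0.04, SE 0.11, adjusted p = 0.847). For 3 further genes the KO libraries stood above the WT libraries without passing. *Sfmbt2*, a Polycomb protein, was at 1.51 and 1.47 in WT and at 1.88 and 2.06 in KO (0.37, SE 0.16, adjusted p = 0.195). *Peg13*, a non-coding RNA inside *Trappc9*, was at 0.781 and 0.786 in WT and at 1.10 and 1.28 in KO (0.54, SE 0.22, adjusted p = 0.162). *Trappc9*, a trafficking protein, was at 5.95 and 5.91 in WT and at 7.44 and 7.54 in KO (0.33, SE 0.10, adjusted p = 0.0849).

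By parental allele, 10 of 20 tested maternally expressed features rose and none fell by limma, against 6.85% and 5.60% of all features. At an unadjusted p under 0.05, 15 of the 20 were higher and 0 lower, against 1831 and 2013 of all 12990 features. The median log2 fold change of the maternal features was 0.54. Of 19 tested paternally expressed features 5 rose and 4 fell, with a median of 0.23, and they held both the largest rise, at *Mest*, and the largest fall, at *Slc38a4*. The difference between the 2 sets was not tested. Much of the maternal count came from the *Kcnq1* cluster: outside it 4 of 13 tested maternal features rose, the rows of *Copg2*, *Rian*, *Mirg* and *Igf2r*, with a median of 0.33. The paternal rises were *Mest*, *Igf2*, *Ndn*, *Plagl1* and *Impact*.

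The counts were also read without members whose place in the test depended on the KO libraries. Such members were *Igf2*, *Ascl2*, *Plagl1* and the second *Tspan32* feature, with WT means under 0.5. Among the 35 with a WT mean of at least 0.5, 12 rose and 4 fell, and among all features tested with such a mean 6.31% rose and 5.74% fell. At more than 2-fold, 5 of the 35 rose, against 2.08% of those features. Of 17 tested members with coordinates of their own, 9 rose and 2 fell. Of the 22 that share coordinates with another feature, where the division of reads is uncertain, 6 rose and 2 fell.

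**Figure D4:**
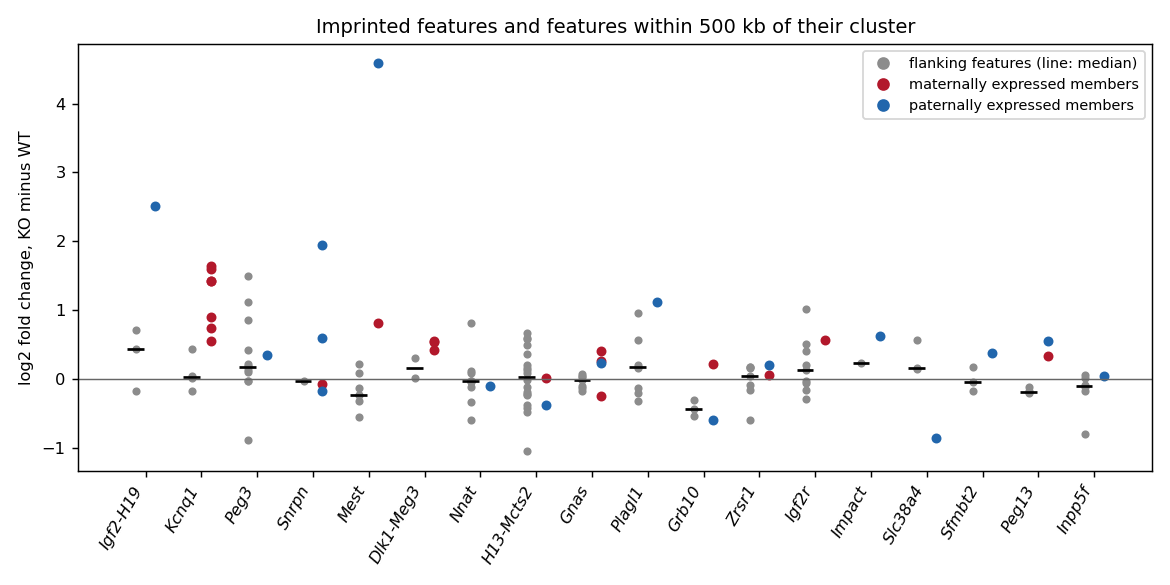
Log2 fold change (KO minus WT) by cluster of imprinted members, red for maternally and blue for paternally expressed genes. Grey points, with a line at the median, are tested features within 500 kb of each cluster that are in neither list of imprinted genes. Members of *Kcnq1* (median 1.43) and *Mest* (4.58 and 0.81) lie above all of their neighbours, whereas around *Igf2r*, *Plagl1* and *H13-Mcts2* the neighbours spread over a range that holds or nears the members.

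Over all clusters 106 neighbouring features in neither list of imprinted genes were tested, of which 9 rose, 5 fell and 92 did not pass. Their median was -0.00, and over all features 6.85% rose and 5.60% fell. *Peg3os* is among the 9. *Peg3os*, *6430411K18Rik*, *R74862*, *C230091D08Rik*, *1700042O10Rik* and *Mcmbp* have the coordinates of members, so that they lie inside a cluster and not only beside one. The median over all tested features of chromosome 7, which holds 5 of the clusters, was 0.02, that of chromosome 6 was 0.08 and that of chromosome 12 was -0.07.

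Most genes that set or maintain imprints did not pass the test. Of 35 listed, 34 were tested, 1 rose and 3 fell, with a median of -0.02. Those 4 of 34 stand beside 12.5% of all features called in either direction. *Dnmt3b*, a de novo methyltransferase, was at 61.3 and 62.0 FPKM in WT and at 37.1 and 35.0 in KO (-0.77, SE 0.07, adjusted p = 0.00522). *Trim28*, the co-repressor recruited by ZFP57, fell from 941 and 923 in WT to 724 and 718 in KO (-0.37, SE 0.07, adjusted p = 0.0306). *Dnmt3l*, the cofactor of de novo methylation, was at 246 and 239 in WT and at 197 and 188 in KO (-0.34, SE 0.07, adjusted p = 0.0366). *Tet3*, an enzyme that oxidises methylcytosine, was at 0.825 and 0.573 in WT and at 1.72 and 1.51 in KO (1.12, SE 0.24, adjusted p = 0.0401). The calls of *Trim28* and *Dnmt3l* were lost in 8 of 14 alternative settings each (adjusted p up to 0.146 and 0.139), and that of *Tet3* in 3 (up to 0.107). *Zfp57* (0.09, adjusted p = 0.476), *Dnmt1* (0.10, adjusted p = 0.388) and *Uhrf1* (-0.07, adjusted p = 0.603) did not pass. Methylation was not measured in these libraries.

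**Figure D5:**
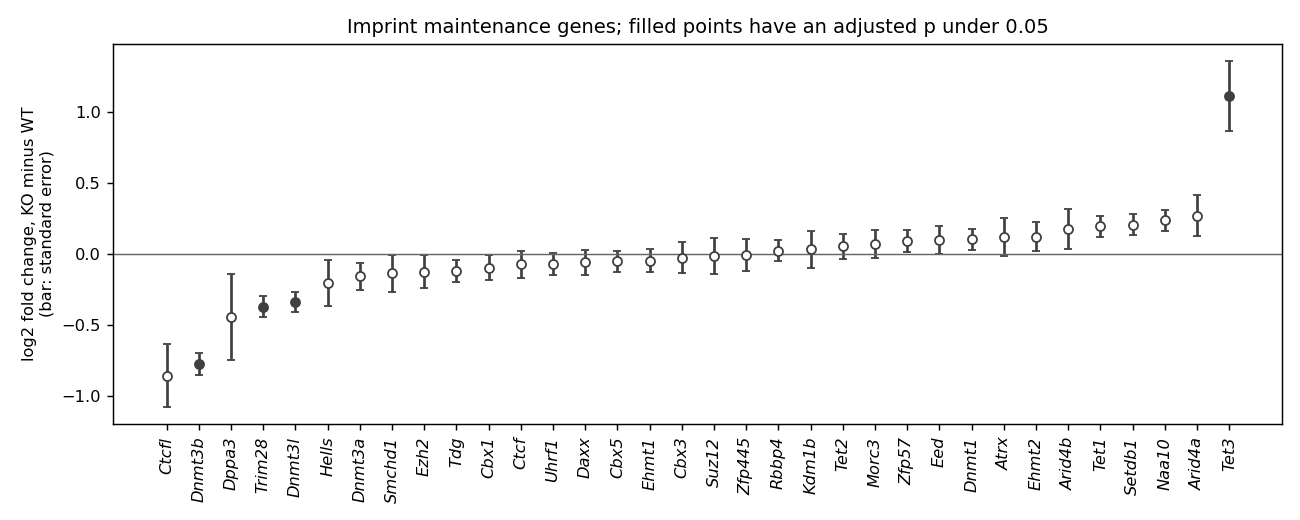
Log2 fold change (KO minus WT, bars are SE) of the 34 tested genes that set or keep imprints, in order of their change, filled where the adjusted p is under 0.05. *Dnmt3b* (-0.77), *Trim28* (-0.37) and *Dnmt3l* (-0.34) lie below 0 and *Tet3* (1.12) above it, and the remaining points are open.

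A second list of 38 other genes with imprinted or parent-specific expression, many of them imprinted in placenta alone, gave 16 tested features outside the rows of members, of which 2 rose and 2 fell, with a median of 0.03, against 6.85% and 5.60% of all features. *Rhox5*, an X-linked homeobox gene, was at 2.48 and 3.33 FPKM in WT and at 20.0 and 17.6 in KO (2.66, SE 0.16, adjusted p = 0.00169). *Atp10a*, a lipid flippase beside *Ube3a*, was at 0.324 and 0.163 in WT and at 1.14 and 0.883 in KO (1.72, SE 0.36, adjusted p = 0.0346). It too entered the test through the KO libraries, and its call was lost in 2 of 12 alternatives (adjusted p from 0.000342 to 0.0623), without a filter and without KO replicate 2. *Pon2*, a lactonase beside *Peg10*, fell from 4.49 and 5.68 in WT to 2.05 and 2.17 in KO (-1.22, SE 0.16, adjusted p = 0.00994). *Cobl*, an actin nucleator beside *Grb10*, fell from 47.8 and 45.2 to 29.0 and 29.1 (-0.68, SE 0.08, adjusted p = 0.00708), as did *Peg10* and *Ddc* among the members of those 2 clusters.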

How the data were processed

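Total RNA from 2 WT and 2 *Bmal1* KO ESC libraries had been depleted of ribosomal RNA and sequenced. The authors aligned reads to GRCm38 with TopHat2 2.1.1 and Bowtie2 2.3.0, per the submitters' processing notes, and deposited FPKM per feature from Cufflinks 2.2.1. Read totals and strand settings are not given in the sources used here, so depth is unknown and no counting interval is given. The 4 tables were joined by feature. The 12990 of 19645 features whose mean reached 0.5 FPKM were tested with limma 3.58.1 (R 4.3.3), with a variance trend, on log2(FPKM + 0.1), two-sided, with Benjamini-Hochberg adjustment. An exact permutation test of 2 against 2 libraries cannot go below p = 0.333. Every member with a row is given, by library where its adjusted p is under 0.05 or it names a cluster. Of listed genes those past the test are named. Of neighbours within 500 kb in neither list of imprinted genes, the one with the lowest adjusted p is named beside a cluster with a call. The members and lists were chosen with earlier results of these data known. Gene positions come from GENCODE and sequences from RefSeq, both GRCm38. Replicate numbers come from the labels, which do not say that a number marks a shared batch. Alternatives were the pseudocount, filter, normalization, variance trend, replicate block, features summed by symbol and each library left out, and, chosen after seeing the data, 2 other scalings.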

Additional observations from a re-analysis of the deposited data

How the results depend on the processing

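Of the 19 calls among the imprinted features, all 19 were kept with a pseudocount of 0.01, with features summed by symbol and with median-of-ratios scaling, 18 with a pseudocount of 1, with quantile normalization and with FPKM rescaled to features with a symbol, 17 with a minimum of 1 and 14 without a filter or without a variance trend. With a pseudocount of 1, 5 members were more than 2-fold higher (8 with 0.1), and log2 fold changes of *Ascl2*, *Tspan32* and *Plagl1* fell to 0.84, 0.81 and 0.54. Without a filter and without a trend, 2 members were lower instead of 4. The median of maternally expressed members was 0.41 without a filter (0.54 in the report). That of paternally expressed members (0.23) was 0.16 with a pseudocount of 1, 0.34 without a filter, 0.18 with quantile normalization and 0.30 after rescaling. The cause was not tested. Leaving out 1 library gave 12 to 16 members higher, 3 lower, 7 to 9 higher by more than 2-fold and 0 lower by more than 2-fold, with medians of 0.47 to 0.57 for maternally and 0.29 to 0.36 for paternally expressed members. Signs turned within the range from the lowest to the highest value on leaving out 1 library for *Ube3a* (-0.28 to 0.13, 0.06 without WT replicate 2), *H13* (-0.060 to 0.092, -0.04 without KO replicate 2), the third *Gnas* feature (-0.61 to 0.10, and 0.26 summed by symbol) and *Inpp5f* (-0.0080 to 0.084), none of which passed the test.

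With the replicate number as a block, 20 members were higher and 5 lower, the 19 calls were kept and *Gnas*, *Grb10*, *Meg3*, *Mkrn3*, *Snrpn* and *Trappc9* were added. The WT and KO libraries share only a number. Across features, which are not independent, the difference between replicates 1 and 2 in WT and that in KO had a Pearson r of 0.0712 and a Spearman rho of 0.387. Over all features 890 rose and 728 fell, against 1807 and 2245 with the block, 571 and 380 without a filter, 708 and 457 without a trend, and 1077 and 517 after rescaling to features with a symbol, which moved the median of all features from -0.02 to 0.05. FPKM carry no read totals, so the precision of low members such as *H19*, *Kcnq1ot1* and *Dlk1* is unknown.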
